A study of Mus musculus with 12 samples.

Results

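The genes described here are the 7 C-type lectin pattern receptors Clec4d, Clec4e, Clec4n, Clec5a, Clec7a, Clec10a and Clec12a, matched by mouse gene symbol among the 54532 Ensembl genes of a table of FPKM values (fragments per kilobase of exon, scaled by 1 factor per library). RNA of cultured mouse bone marrow cells was sequenced in 12 libraries, 3 in each of 4 groups. Untreated macrophages were wild-type marrow cells expanded with CMG, a source of the growth factor M-CSF, and held to day 5 without RANKL. LPS-treated macrophages were such cells after 3 h of lipopolysaccharide (LPS, a component of the outer membrane of Gram-negative bacteria) at 100 ng/mL. Untreated osteoclasts, the multinucleated cells that resorb bone, came from such macrophages cultured with RANKL, for which the sample source names 100 ng/mL and the protocol a range up to that dose. LPS-treated osteoclasts received the same LPS dose for the same 3 h. All 4 groups shared the wild-type genotype and CMG. The labels do not say whether the libraries of a group came from separate mice, so the p-values measure only the spread between these libraries, which may be technical.

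C-type lectin receptors are membrane proteins of myeloid cells that bind sugars, glycolipids and products of dead cells through a lectin-like domain. Activating members pass the signal to the kinase Syk, either through an adapter with an immunoreceptor tyrosine-based activation motif (the Fc receptor gamma chain, encoded by Fcer1g, or DAP12, encoded by Tyrobp) or through a related motif in their own tail. Syk then engages the complex of Card9, Bcl10 and Malt1, which activates NF-kB. Inhibitory members carry an inhibitory motif that recruits the phosphatases SHP-1 and SHP-2, encoded by Ptpn6 and Ptpn11. In osteoclasts the same adapters and Syk are known for the costimulatory signal that RANKL needs to drive differentiation.

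Positions are those of GENCODE M21 on build GRCm38, and 6 of the 7 genes lie on chromosome 6. Clec4n (ENSMUSG00000023349, chr6:123229843-123247021, plus strand), Clec4d (ENSMUSG00000030144, chr6:123262111-123275265, plus strand) and Clec4e (ENSMUSG00000030142, chr6:123281789-123289870, minus strand) are neighbours, 15.1 kb and 6.5 kb apart. Clec12a (ENSMUSG00000053063, chr6:129342691-129365303, plus strand) and Clec7a (ENSMUSG00000079293, chr6:129461591-129472779, minus strand) are 96.3 kb apart. Clec5a (ENSMUSG00000029915, chr6:40574894-40585821, minus strand) stands alone on that chromosome, and Clec10a (ENSMUSG00000000318, chr11:70156197-70170834, plus strand) is on chromosome 11. Exons of the 7 genes overlap those of no other gene on either strand. Of the 50-base stretches in Clec10a transcripts, 9.02% also occur in another gene, mostly its paralog Mgl2, so its values are uncertain to that extent.

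RefSeq promoters on build GRCm38.p6, from 250 bases before to 50 bases after the gene start, were matched for 5 of the 7 genes: Clec4d, Clec4e, Clec5a, Clec7a and Clec12a. The 3 printed here belong to the members whose response to LPS differed between the cell types by test. Capitals mark matches, on either strand, to the letters of 6 motifs, which are named after the sequences.
Clec4e promoter, chr6:123289822-123290121, minus strand: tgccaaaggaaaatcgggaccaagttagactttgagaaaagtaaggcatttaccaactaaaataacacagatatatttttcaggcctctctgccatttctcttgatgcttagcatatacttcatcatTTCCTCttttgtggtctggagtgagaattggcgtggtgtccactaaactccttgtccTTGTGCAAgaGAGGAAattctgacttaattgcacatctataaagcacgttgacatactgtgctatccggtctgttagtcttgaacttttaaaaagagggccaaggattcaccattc
Clec4d promoter, chr6:123261857-123262156, plus strand: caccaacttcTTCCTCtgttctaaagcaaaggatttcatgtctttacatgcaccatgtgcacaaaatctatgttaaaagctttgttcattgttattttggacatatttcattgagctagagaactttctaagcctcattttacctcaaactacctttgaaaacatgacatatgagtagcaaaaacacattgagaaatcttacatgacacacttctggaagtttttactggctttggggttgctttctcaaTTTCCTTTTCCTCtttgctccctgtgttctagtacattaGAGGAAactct
Clec12a promoter, chr6:129349994-129350293, plus strand: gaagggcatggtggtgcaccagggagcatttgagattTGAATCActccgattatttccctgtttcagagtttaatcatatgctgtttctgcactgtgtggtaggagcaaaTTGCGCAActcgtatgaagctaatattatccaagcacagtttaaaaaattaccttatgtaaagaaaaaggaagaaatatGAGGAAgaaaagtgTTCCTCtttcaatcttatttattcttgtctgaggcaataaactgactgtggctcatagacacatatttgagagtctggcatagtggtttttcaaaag
The PU.1 core (GAGGAA) occurred in 5 of 5 member promoters and in 31.3% of the 27025 genes with a promoter in the table. A C/EBP match (TTGCNNAA) stood 66 bases before the start of Clec4e and 140 bases before that of Clec12a, and 12.2% of all genes hold one. The Clec12a window also held an AP-1 match (TGANTCA, 8.97% of all genes) 213 bases before the start. Clec4d held an IRF match (GAAANNGAAA, 3.99% of all genes) that begins at the start itself and overlaps a PU.1 core match. Neither the NF-kB consensus (5.14% of all genes) nor the E-box CACGTG (8.09%) was found in any of the 5 windows, which says only that these letters are not in these windows. The RefSeq start of Clec12a lies inside the longer GENCODE gene.

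Clec4e encodes Mincle, which binds the mycobacterial glycolipid cord factor and the nuclear protein Sap130 released by dying cells, and signals through the Fc receptor gamma chain. Its values in untreated macrophage replicates 1 to 3 were 3.96, 3.93 and 4.51 FPKM, and those after LPS were 290, 251 and 263 FPKM. Untreated osteoclasts held 2.5, 1.98 and 2.16 FPKM, and LPS-treated osteoclasts 51.2, 28.7 and 49.7 FPKM. No 2 of the 4 groups overlapped: LPS-treated macrophages were highest, followed by LPS-treated osteoclasts, untreated macrophages and untreated osteoclasts. LPS raised Clec4e 64.8-fold in macrophages, from 4.14 ± 0.327 to 268 ± 20.4 FPKM (mean ± SD, n = 3), a log2 difference of 5.71 with a standard error of 0.17 and an adjusted p of 2.95e-11. All differences were tested with limma on log2(FPKM + 1), a scale that understates changes of low genes, with the Benjamini-Hochberg adjustment across the 11335 genes tested. In osteoclasts LPS raised it 19.5-fold, from 2.21 ± 0.265 to 43.2 ± 12.6 FPKM (log2 difference 3.74, standard error 0.17, adjusted p = 2.79e-08 by limma). The osteoclast response was smaller than the macrophage response by 1.97 on the log2 scale (interaction −1.97, 95% interval −2.50 to −1.44, limma adjusted p = 2.40e-05). Osteoclasts held 53.5% of the macrophage level without LPS and 16.1% with LPS.

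Clec4d encodes MCL, the partner of Mincle in binding cord factor and a user of the same gamma chain. It was the most abundant of the 7 transcripts in macrophages, at 205, 196 and 196 FPKM untreated and 534, 504 and 533 FPKM with LPS. Untreated osteoclasts had 49.5, 40.7 and 43.6 FPKM, and LPS-treated osteoclasts 75.7, 41.1 and 62.2 FPKM. Every macrophage library lay above every osteoclast library, and the osteoclast groups overlapped. Clec4d rose 2.63-fold with LPS in macrophages (199 ± 4.77 to 523 ± 17.3 FPKM, n = 3 each, log2 difference 1.39, standard error 0.16, limma adjusted p = 8.36e-06). In osteoclasts the difference was 0.37 (95% interval 0.02 to 0.73, limma adjusted p = 0.14) and was not called. Without LPS-treated osteoclast replicate 2 it was 0.61 and was called, with a limma adjusted p of 5.34e-04. The interaction was −1.02 (standard error 0.23, limma adjusted p = 0.00241), and it was not called when libraries were rescaled to a common sum (−0.44, adjusted p = 0.0775) or quantile normalized (−0.23, adjusted p = 0.385). Osteoclast levels were 22.4% of macrophage levels without LPS and 11.4% with LPS.

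Clec4n encodes Dectin-2, a receptor for fungal mannans that also pairs with the gamma chain. Its values were 26.5, 23.6 and 26.9 FPKM in untreated macrophages and 40.2, 28.8 and 31.1 FPKM after LPS. In osteoclasts they were 5.8, 5.5 and 4.81 FPKM untreated and 8.07, 4.2 and 6.06 FPKM with LPS. The macrophage groups did not overlap each other and lay far above both osteoclast groups, which did overlap. Clec4n was 4.78-fold lower in untreated osteoclasts (log2 difference −2.07, standard error 0.17, limma adjusted p = 2.72e-07). Neither LPS effect was called: 0.36 in macrophages (95% interval −0.02 to 0.73, limma adjusted p = 0.0856) and 0.13 in osteoclasts (−0.25 to 0.50, adjusted p = 0.678). The macrophage difference was called without LPS-treated osteoclast replicate 1 (adjusted p = 0.0347) or replicate 2 (adjusted p = 0.0257), since the 12 libraries share 1 estimate of spread.

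Clec7a encodes Dectin-1, the receptor for fungal beta-glucan, which carries its own activating motif in the tail. GENCODE types this locus as a polymorphic pseudogene in its annotation. Its values were 9.85, 9.12 and 11.2 FPKM in macrophages without LPS and 13, 12.4 and 12.6 FPKM with it. Osteoclasts held 1.85, 1.62 and 1.7 FPKM without LPS and 2.49, 1.3 and 1.85 FPKM with it. Macrophage libraries were again all above osteoclast libraries, by 5.84-fold in the means without LPS (log2 difference −2.02, standard error 0.12, limma adjusted p = 1.12e-08). LPS gave a small called rise in macrophages, 1.26-fold (log2 difference 0.31, standard error 0.12, limma adjusted p = 0.0387). That call was lost when any 1 of untreated macrophage replicates 1 and 2 or LPS-treated macrophage replicates 1, 2 and 3 was left out, with differences of 0.25 to 0.32 and limma adjusted p between 0.0649 and 0.132. It was also lost under quantile normalization (0.05, limma adjusted p = 0.7) and with libraries rescaled to a common sum (−0.30, limma adjusted p = 0.0636). In osteoclasts the difference was 0.06 (95% interval −0.20 to 0.33, limma adjusted p = 0.773).

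Clec5a encodes MDL-1, a receptor that signals through DAP12 and is known as a sensor of dengue virus. It lay at 9.16, 9.16 and 9.03 FPKM in untreated macrophages and at 15.1, 15.9 and 15.6 FPKM after LPS. Untreated osteoclasts had 3.39, 2.77 and 2.85 FPKM, and LPS-treated osteoclasts 7.73, 3.23 and 5.78 FPKM. LPS-treated osteoclasts reached from the untreated osteoclast range to near the untreated macrophage range. Clec5a rose with LPS in macrophages (1.71-fold, log2 difference 0.71, standard error 0.19, limma adjusted p = 0.00543) and in osteoclasts (1.86-fold, log2 difference 0.66, standard error 0.19, limma adjusted p = 0.034). With libraries rescaled to a common sum, the macrophage difference was 0.12 and was not called. The osteoclast groups overlapped, and the osteoclast call was lost when any 1 of untreated osteoclast replicates 1, 2 and 3 or LPS-treated osteoclast replicates 1 and 3 was left out. The differences were then 0.42 to 0.73, with 0.42 (limma adjusted p = 0.101) without LPS-treated replicate 1 and 0.95 (called) without LPS-treated replicate 2. The 95% interval of the interaction ran from −0.64 to 0.54 around −0.05 (limma adjusted p = 0.885).

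Clec10a encodes MGL1, a galactose-type lectin that is used as a marker of alternatively activated macrophages. It was the lowest of the 7, at 1.55, 1.73 and 1.43 FPKM in untreated macrophages and 2, 1.78 and 2.75 FPKM after LPS. Osteoclasts held 0.187, 0.0204 and 0.325 FPKM untreated and 0.209, 0.112 and 0.17 FPKM with LPS, from 27 and 26 reads per group of 3 libraries. It passed the filter for testing (at least 1 FPKM in at least 3 libraries) only through the macrophages, so a lower osteoclast value was built into its being tested. Its untreated difference was −1.13 (standard error 0.12, limma adjusted p = 2.61e-06). The LPS difference in macrophages, 0.30, had a limma adjusted p of 0.0441, and the call was lost without untreated macrophage replicate 1 or 3, LPS-treated macrophage replicate 1 or 3, untreated osteoclast replicate 1, or any 1 LPS-treated osteoclast replicate. The lowest difference was then 0.17, without LPS-treated macrophage replicate 3. The other 6 members had at least 1 FPKM in every osteoclast library.

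Clec12a encodes MICL, the inhibitory member of the set, which binds uric acid crystals and dead cells. Its values in untreated macrophages were 39.7, 41.1 and 43.6 FPKM, the lowest of the 4 groups. The other groups were close together, at 88, 88.8 and 91.5 FPKM in macrophages given LPS, 96.7, 90.9 and 90.7 FPKM in untreated osteoclasts and 108, 100 and 97.8 FPKM in LPS-treated osteoclasts. LPS-treated macrophages and untreated osteoclasts overlapped, and the other neighbours in this order did not. LPS raised Clec12a 2.16-fold in macrophages (41.5 ± 1.96 to 89.4 ± 1.85 FPKM, n = 3 each, log2 difference 1.09, standard error 0.05, limma adjusted p = 7.80e-10), and the difference was 0.46 under rescaling to a common sum and 0.41 under quantile normalization, both called. In osteoclasts the LPS difference was 0.13 (95% interval 0.03 to 0.24, limma adjusted p = 0.0734) and was not called. The interaction was −0.96 (standard error 0.07, limma adjusted p = 1.66e-07). It was the 1 member that was higher in osteoclasts, by 2.24-fold without LPS (log2 difference 1.14, limma adjusted p = 3.37e-10) and by 1.14-fold with LPS (log2 difference 0.19, limma adjusted p = 0.00294). Under those scalings these differences were 0.74 and 0.90 without LPS and 0.35 and 0.52 with LPS, and the interaction was −0.39 and −0.38, all called.

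**Figure D1:**
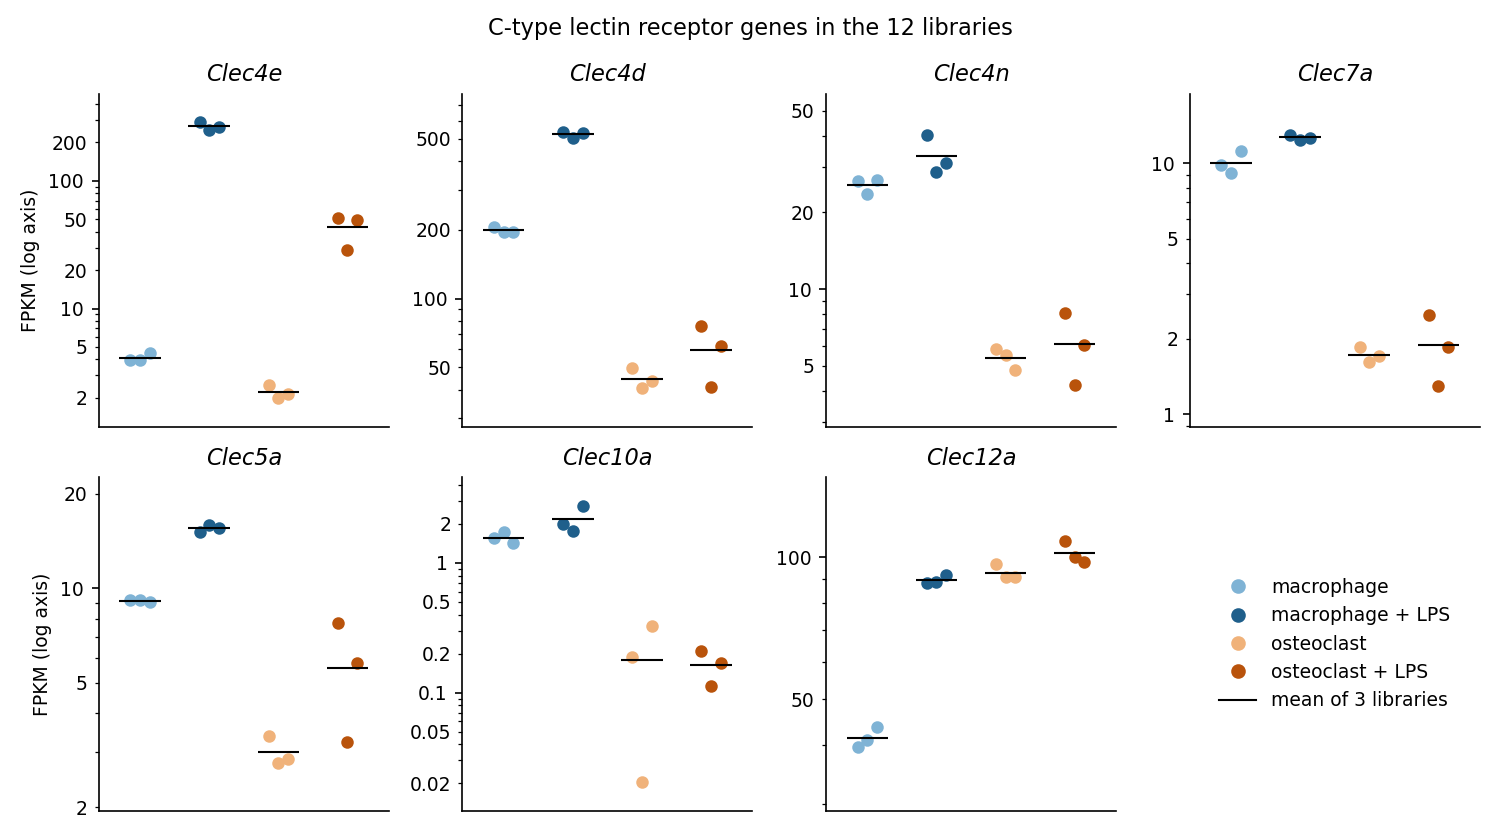
FPKM of each of the 7 receptor genes (vertical log axis, a scale of its own per gene) in the 12 libraries, with 1 point per library and a bar at the mean of the 3 libraries of a group. Clec12a is lowest in untreated macrophages, whereas the other 6 genes are lower in osteoclasts than in macrophages of the same treatment.

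Apart from Clec10a, whose lower osteoclast value the filter fixed, untreated osteoclasts were lower than untreated macrophages for 5 of the 6 other genes and higher for 1, where 39% of all 11335 genes tested were called lower and 38.8% higher. The median difference of these 6 was −1.68, against 0.00 for all genes tested. With LPS in both cell types the counts were again 5 lower and 1 higher, beside 43% of all genes called lower and 40.9% higher, and the median was −2.28 against −0.02. The 5 lower genes kept 17.1% to 53.5% of the macrophage level without LPS and 11.4% to 35.9% with LPS, and Clec10a 11.3% and 7.52%. In these bulk cultures, fewer cells of a type and less RNA per cell cannot be told apart.

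Several macrophage genes kept a smaller part of their level than most of the receptors did. Untreated osteoclasts held 0.342% of the macrophage level of Cx3cr1, 0.877% of Mrc1, 0.952% of Fcgr1, 7.74% of Adgre1, 9.22% of Mertk and 14.9% of Cd14, but 70.4% of Csf1r and 209% of Cd68. Clec4d at 22.4%, Clec4n at 20.9% and Clec7a at 17.1% were thus above each of these genes except Csf1r and Cd68. Of 7 macrophage markers, 6 were called lower in untreated osteoclasts and 1, Cd68, higher. Values of Csf1r and Cx3cr1 are uncertain because their exons overlap genes on the opposite strand, and whether reads were counted by strand is not given in the sources used here.

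LPS raised 6 of 7 members in macrophages and lowered 0, where 36.8% of all genes tested were called higher and 33.1% lower. The member median was 0.71, against 0.02 for all genes. In osteoclasts LPS raised 2 of 7, Clec4e and Clec5a, and lowered 0, beside 11.1% of all genes called higher and 6.59% lower, with a member median of 0.13 against 0.01. The interaction was called below 0 for 3 of 7, Clec4e, Clec4d and Clec12a, and above 0 for 0. Of all genes tested, 30% were called below 0 and 26.6% above it, and the member median was −0.31 against −0.01.

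**Figure D2:**
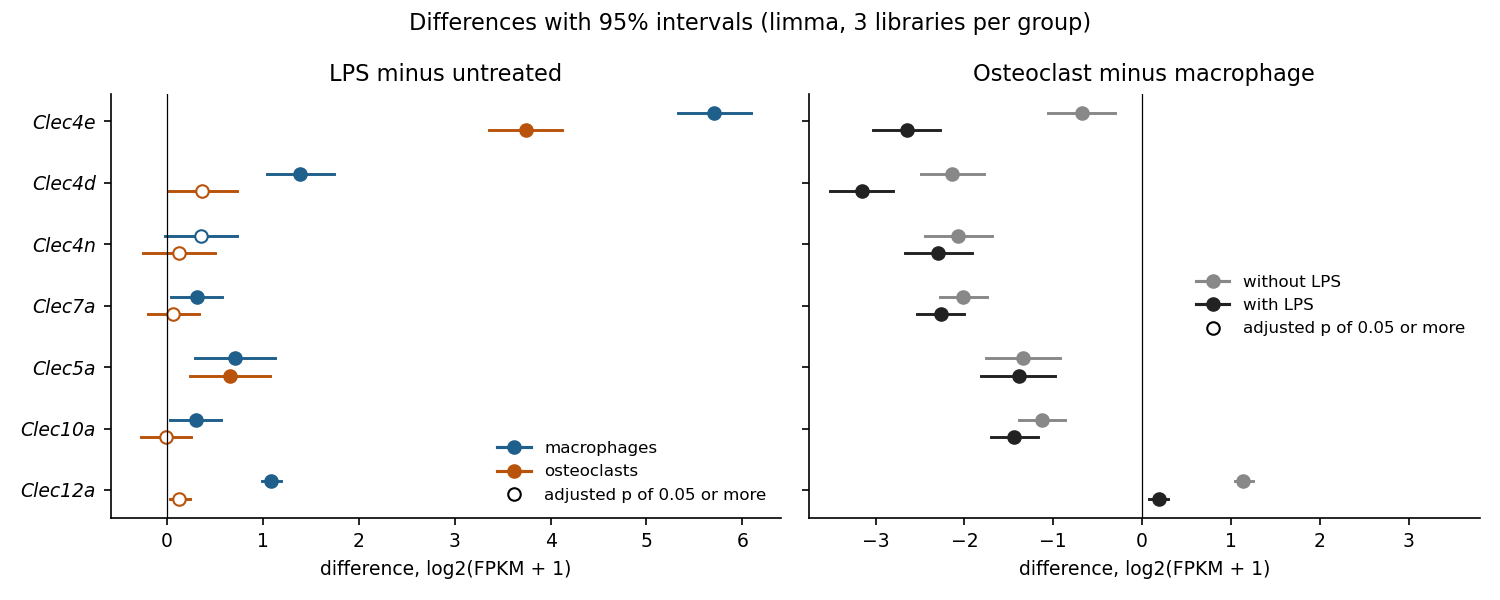
Differences on the log2(FPKM + 1) scale with 95% intervals from limma (3 libraries per group): LPS minus untreated on the left, osteoclast minus macrophage on the right, with open circles for an adjusted p of 0.05 or more. The Clec4e, Clec4d and Clec12a intervals for LPS do not overlap between the cell types, and Clec12a is the gene to the right of 0 in the comparison of cell types.

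The whole reads recovered from the values totalled 14875560 to 19278653 per library. The deposited values are scaled to the typical gene, and the summed FPKM of a library ran from 255852 in an untreated macrophage library to 408994 in an LPS-treated one. Rescaling each library to a common sum (TPM) moved the median of all genes for LPS in macrophages from 0.02 to −0.55, for osteoclasts against macrophages from 0.00 to −0.38 without LPS and from −0.02 to 0.12 with LPS, and for the interaction from −0.01 to 0.51. The share of calls that were higher, over all genes, went from 52.6% to 18.5% for LPS in macrophages, from 62.8% to 43.5% for LPS in osteoclasts, from 49.9% to 29.9% between the untreated cell types and from 47.0% to 82.0% for the interaction. Quantile normalization gave 37.0%, 38.5%, 51.5% and 59.9%, with a median of −0.14 for LPS in macrophages. On the TPM scale 3 members were called for LPS in macrophages, where 15.9% of all genes were called higher and 70% lower: Clec4e (5.28), Clec4d (0.75) and Clec12a (0.46). Clec5a was at 0.12 (limma adjusted p = 0.59) and was no longer called. Clec4n (−0.28), Clec7a (−0.30) and Clec10a (−0.16) changed sign under TPM and were not called, although each stood above the shifted median, by 0.28, 0.25 and 0.39. The Clec12a interaction was −0.39 with a limma adjusted p of 1.22e-04 on the TPM scale, and that of Clec4e −1.31 with an adjusted p of 3.51e-04. Under quantile normalization Clec4e, Clec12a and Clec10a (−0.48, limma adjusted p = 0.0332) were called for the interaction. Clec10a had at most 0.325 FPKM in any osteoclast library, where log2(FPKM + 1) leaves little room for an LPS difference. Its interaction thus mostly repeats its macrophage difference and is not a separate result. The 6 members other than Clec10a kept their direction and their call between the cell types under TPM and quantile normalization.

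Ratios between 2 receptors within a library do not depend on 1 factor per library, such as the rescaling to TPM. The makeup of the set, as each gene's share of the summed FPKM of the 7, differed by both cell type and treatment. Clec4d made up 68.4% ± 1.21 of the sum in untreated macrophages (SD, n = 3) and Clec12a 14.3% ± 0.73, while in untreated osteoclasts Clec12a made up 62% ± 1.43 and Clec4d 29.7% ± 1.28. Clec12a thus stood at 0.209 times the Clec4d value in untreated macrophages and at 2.09 times in untreated osteoclasts. LPS took the share of Clec4e from 1.42% ± 0.105 to 28.4% ± 1.05 in macrophages and from 1.47% ± 0.0922 to 19.5% ± 3.18 in osteoclasts. Clec4e over Clec4d, the 2 partners in binding cord factor, went from 0.0208 to 0.512 in macrophages and from 0.0495 to 0.724 in osteoclasts. This ratio was higher in each osteoclast library than in any macrophage library of the same treatment: its range with LPS was 0.676 to 0.8 in osteoclasts and 0.494 to 0.544 in macrophages. These shares and ratios were described and not tested.

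**Figure D3:**
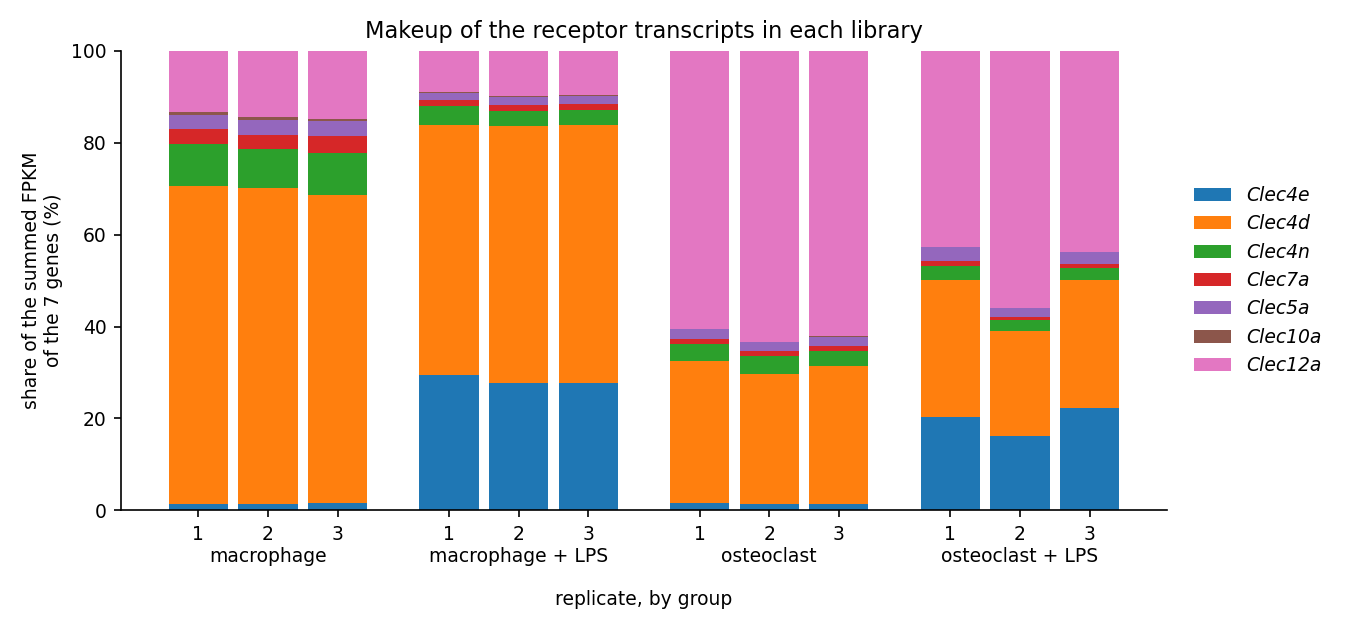
Share of each gene in the summed FPKM of the 7 genes (vertical axis, percent) for every library, grouped by cell type and treatment, with replicates 1 to 3 side by side. Clec4d is the widest band in the 6 macrophage libraries and Clec12a in the 6 osteoclast libraries, and Clec4e widens with LPS in both.

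Among LPS-treated osteoclasts, replicate 2 was lowest for 6 of 7 members and replicate 1 highest for 7 of 7. The highest value was 1.79 to 2.4 times the lowest for Clec4d, Clec4e, Clec4n, Clec5a, Clec7a and Clec10a, and 1.1 times for Clec12a. Some macrophage genes were also lowest in replicate 2. In the order of replicates 1, 2 and 3, Adgre1 was at 73.1, 42.5 and 70.9 FPKM, Mrc1 at 3.35, 1.62 and 3.41 FPKM and Fcgr1 at 1.68, 0.927 and 1.88 FPKM. Cd14, Mertk and Cx3cr1 were lowest in replicate 2 as well, as were Cxcl10 (240, 141 and 260 FPKM) and Ifit1 (134, 79.4 and 150 FPKM). The macrophage markers Csf1r (286, 304 and 289 FPKM) and Cd68 (1351, 1446 and 1325 FPKM) were instead highest in replicate 2. The summed level of the 7 macrophage markers, most of it Cd68 and Csf1r, was 1768, 1828 and 1736 FPKM. The sum of the 10 osteoclast markers was 29965, 32220 and 29220 FPKM, highest in replicate 2. Replicate 2 had the fewest recovered reads of the 12 libraries and replicate 1 the most. The part that these differences play in the LPS results in osteoclasts was not tested beyond leaving out each library.

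Markers of other cells were checked in every group. The 10 osteoclast markers (Ctsk, Acp5, Calcr and others) summed to 16.3 to 29 FPKM in the 6 macrophage libraries and 29220 to 32220 FPKM in the 6 osteoclast libraries, and Calcr was at 0 in untreated macrophages. The 10 neutrophil markers summed to 5.7 to 8.57 FPKM in untreated macrophages, 6.88 to 16.4 FPKM with LPS and 0.305 to 1.88 FPKM in osteoclasts, with Ly6g and Elane at 0 in untreated macrophages. Of the 3 that were tested, S100a9 (2.12-fold) and Ngp (2.23-fold) were called higher with LPS in macrophages. The 3 stromal markers (Col1a1, Col1a2 and Pdgfra) summed to 24.5 to 34.1 FPKM in macrophages and 0.0696 to 0.605 FPKM in osteoclasts. The 3 monocyte markers summed to 1.33 to 2.69 FPKM in macrophages and at most 0.0224 FPKM in osteoclasts. Neutrophil, monocyte and stromal levels thus went in the direction of the 6 lower receptors, and their part in that difference was not tested. The 6 dendritic cell markers summed to 0.377 to 0.478 FPKM in untreated macrophages, 5.63 to 6.36 FPKM with LPS and at most 2.43 FPKM in osteoclasts. Xcr1 was the 1 gene of that list with a mean above 1 FPKM in LPS-treated macrophages. Neutrophil and dendritic cell markers thus went in the direction of the receptors with LPS in macrophages, and their part in the LPS results was not tested. The B cell, T cell and mast cell lists, of 3 genes each, stayed at or below 0.134, 0.0629 and 0.0938 FPKM.

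By pattern over the 12 libraries, which fall into 4 groups, 2 genes most like each member were named by the highest Pearson r on log2(FPKM + 1). For Clec4e these were the interferon-stimulated gene Ifit1 (r = 0.9993) and the chemokine gene Cxcl10 (r = 0.9985). Clec12a was nearest to Anxa1 (r = 0.9979), which encodes the phospholipid-binding protein annexin A1, and to the RNA 4930430E12Rik (r = 0.9971). Anxa1 had 135, 374, 383 and 435 FPKM in untreated and LPS-treated macrophages and untreated and LPS-treated osteoclasts, the same order of group means as for Clec12a. Clec4d was nearest to the transcription factor gene Cebpb (r = 0.9980) and the nucleoside kinase gene Dck (r = 0.9968), Clec4n to Mgst1 (r = 0.9952) and Clec7a (r = 0.9950), and Clec7a to Pid1 (r = 0.9981) and Tmem173 (r = 0.9976), which encodes the DNA-sensing adapter STING. Clec5a was nearest to the antioxidant regulator gene Nfe2l2 (r = 0.9851) and the integrin gene Itgal (r = 0.9802), and Clec10a to Gtpbp1 (r = 0.9887) and Hnrnpd (r = 0.9880). Among the members, Clec4d, Clec4n, Clec5a, Clec7a and Clec10a had r of 0.89 to 0.99 with each other, Clec4e 0.42 to 0.70 with these 5, and Clec12a −0.55 to 0.43 with the other 6. These values describe 4 group levels more than 12 independent points. Exons of Cebpb, Cxcl10, Gtpbp1 and Hnrnpd overlap opposite-strand genes, so their values are uncertain.

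The signalling genes behind these receptors, a list of 26 of which all were tested, changed in both directions. LPS in macrophages raised 17 and lowered 5, beside 36.8% and 33.1% of all genes, with a median of 0.42, and under TPM it raised 8 and lowered 13, beside 15.9% and 70% of all genes on that scale. The Fcer1g adapter had 722 ± 24.5 FPKM in untreated macrophages, 1151 ± 35.4 with LPS, 207 ± 5.02 in untreated osteoclasts and 246 ± 24 in LPS-treated osteoclasts. It was lower in untreated osteoclasts by a log2 difference of −1.80 (limma adjusted p = 5.43e-11), as were its partners Clec4d, Clec4n and Clec4e, and its rise with LPS in macrophages (0.67, limma adjusted p = 7.95e-07) was 0.02 under TPM and −0.60 under quantile normalization. The Tyrobp adapter, used by Clec5a, lay at 792 ± 20.1, 862 ± 13, 787 ± 26.5 and 880 ± 93.9 FPKM in the same order of groups. Its untreated difference between the cell types was −0.01 (limma adjusted p = 0.918), but it was −0.43 and called under TPM and −0.82 and called under quantile normalization.

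Syk, like Clec12a, was lowest in untreated macrophages, at 22, 51.8, 51.4 and 58.9 FPKM in the same order of groups. It rose with LPS in macrophages by 1.20 on the log2 scale (limma adjusted p = 5.16e-10) and was higher in untreated osteoclasts by 1.19 (limma adjusted p = 3.66e-10). The largest LPS responses of the list in macrophages were those of the tyrosine kinase gene Src (1.23 to 46.2 FPKM, log2 difference 4.40) and the paracaspase gene Malt1 (2.26 to 47.5 FPKM, 3.89). In osteoclasts Malt1 rose from 4.65 to 14.5 FPKM (1.45, limma adjusted p = 2.24e-07), and Src, already at 109 FPKM, was at 124 FPKM (0.19, limma adjusted p = 0.0722). Card9, the adapter that joins Bcl10 and Malt1, went the other way from Malt1: it fell with LPS in macrophages (14.1 to 10.2 FPKM, −0.44, limma adjusted p = 2.10e-05) and in osteoclasts (8.93 to 7.3 FPKM, −0.26, limma adjusted p = 0.00812). Bcl10 rose with LPS in macrophages (1.24) and in osteoclasts (0.19, not called under TPM or quantile normalization). Inpp5d, the lipid phosphatase gene for SHIP1, fell in macrophages from 69.3 to 19.7 FPKM (−1.77, limma adjusted p = 6.61e-11), and Ptpn6 fell from 79.7 to 61 FPKM (−0.38, limma adjusted p = 8.44e-07). These 6 genes of the macrophage response (Syk, Src, Malt1, Card9, Inpp5d and Ptpn6) kept their direction and their call under TPM and quantile normalization.

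LPS in osteoclasts raised 7 of the 26 and lowered 4, beside 11.1% and 6.59% of all genes, with a median of 0.06. Untreated osteoclasts were higher for 7 and lower for 15 of the 26, beside 38.8% and 39% of all genes, with a median of −0.25, and under TPM the counts were 5 and 19, beside 24.3% and 57% of all genes. Src (log2 difference 5.62), the ubiquitin ligase gene Cblb (2.19), Syk and Traf6 (1.16) were higher there, and Fcer1g was lower. With LPS the counts were 7 higher and 16 lower (40.9% and 43% of all genes), and the interaction was above 0 for 4 and below 0 for 15 (26.6% and 30% of all genes), which became 12 and 8 under TPM (63.3% and 13.9% of all genes) and 9 and 13 under quantile normalization (36.1% and 24.1%). Exons of Card9 and Ptpn6 overlap opposite-strand genes, so their values are uncertain.

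**Figure D4:**
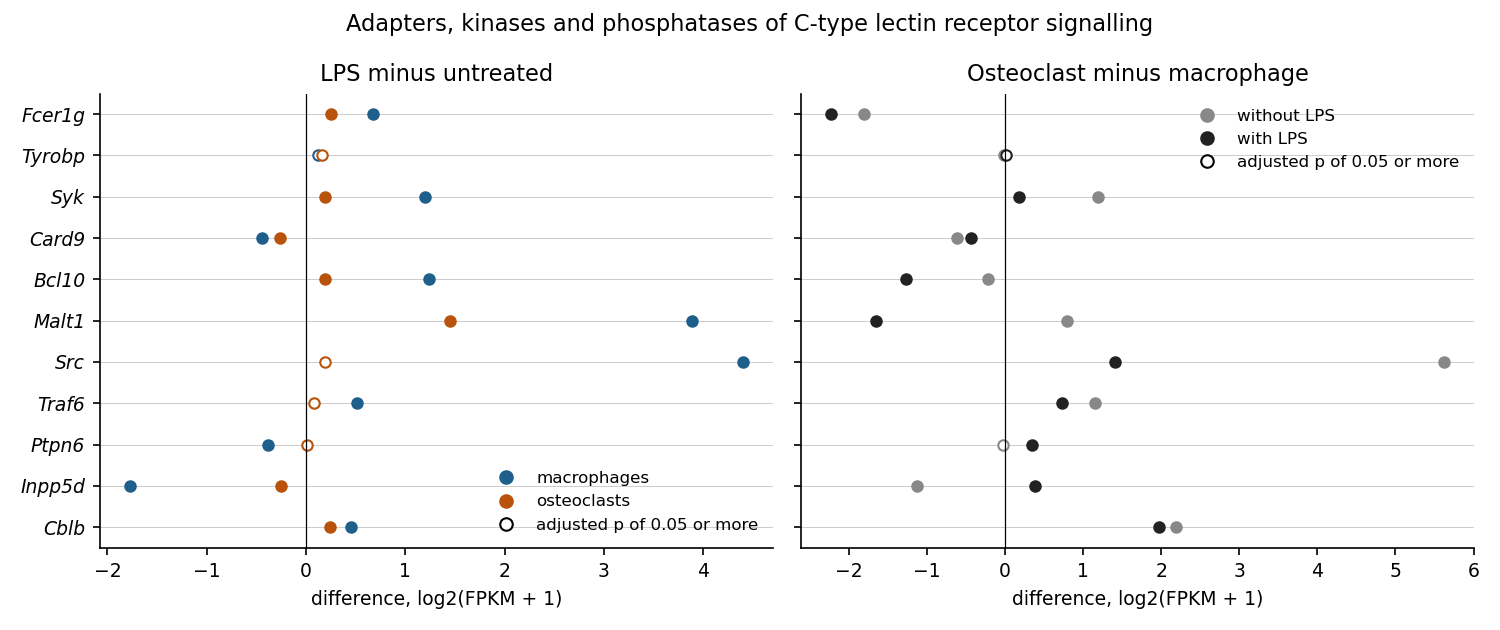
Differences on the log2(FPKM + 1) scale for the 11 signalling genes described in the text: LPS minus untreated on the left and osteoclast minus macrophage on the right, 1 point per gene and comparison, open where the limma adjusted p was 0.05 or more. Src and Malt1 lie farthest right and Inpp5d farthest left for LPS in macrophages, and Src lies farthest right for osteoclasts without LPS.

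Of 33 other C-type lectin receptor genes, 13 passed the filter. Clec4b1, Thbd and Olr1 passed only through macrophages and Clec4a4 only through osteoclasts, so the direction of their difference between the cell types was built in. Untreated osteoclasts were lower for 6 of the other 9 and higher for 2, beside 39% and 38.8% of all genes, with a median of −1.94. The mannose receptor gene Mrc1 went from 293 to 2.57 FPKM (−6.37, limma adjusted p = 4.75e-12) and Cd93 from 115 to 5.28 FPKM (−4.21, limma adjusted p = 2.61e-13). Like Clec12a, Clec4a2, which encodes the inhibitory receptor DCIR, was higher in osteoclasts (18.3 to 97.3 FPKM, 2.35, limma adjusted p = 1.77e-10), as was Clec2d (4.75 to 23.4 FPKM, 2.09). With LPS the counts over these 9 were 1 higher and 8 lower, beside 40.9% and 43% of all genes. LPS raised 7 and lowered 1 of the 13 in macrophages (36.8% and 33.1% of all genes), where TPM gave 4 and 4 (15.9% and 70%), and raised 5 and lowered 2 in osteoclasts (11.1% and 6.59% of all genes). These counts include Cd69, which passed only through LPS-treated libraries, and Thbd, which passed only through untreated macrophages. The rise of Cd69 with LPS and the fall of Thbd in macrophages were therefore built in. Thbd was the 1 gene lowered in macrophages on the deposited scale, and in osteoclasts Cd69 was among those raised and Thbd among those lowered. Olr1, the receptor for oxidized lipoprotein, rose from 1.96 to 107 FPKM in macrophages (5.18) and from 0.0367 to 0.474 FPKM in osteoclasts (0.50). The folds of the Olr1 means were 54.3 and 12.9. The interaction of Clec2d was −3.38, and that of Olr1 was −4.69, which shrinks to −2.07 in the ratio of means because its osteoclast values lie under the pseudocount.

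Protein ligands described for these receptors formed a list of 6, of which 5 passed the filter. LPS raised 4 in macrophages (Vim, Anxa1, Anxa5 and Lgals9) and 1 in osteoclasts (Lgals9), and lowered 0 in each, beside 36.8% raised and 33.1% lowered of all genes in macrophages and 11.1% and 6.59% in osteoclasts. The rises of Anxa1 (135 to 374 FPKM, 1.47) and Lgals9 (52.8 to 153 FPKM, 1.52) in macrophages were still called under TPM and quantile normalization but were smaller. Anxa1 was then at 0.83 and 0.60, and Lgals9 at 0.89 and 0.76. Vim turned negative under both (−0.05 and −0.20) and Anxa5 under the latter (−0.05). The Lgals9 transcript, which encodes the Dectin-1 ligand galectin-9, was lower in untreated osteoclasts (3.6 FPKM, −3.55, limma adjusted p = 8.84e-11). The Vim transcript, which encodes vimentin, was higher there (218 to 1126 FPKM, 2.36, limma adjusted p = 4.34e-13). Sap130, the Mincle ligand, lay at 11.8, 12.4, 8.69 and 7.6 FPKM across the 4 groups, and its LPS difference in macrophages was 0.06 (limma adjusted p = 0.351), but −0.57 under TPM and −0.21 under quantile normalization, both called. In osteoclasts that of Sap130 was −0.17 (limma adjusted p = 0.0572), and it was called under TPM (−0.25) and quantile normalization (−0.23). Of the 5, 3 were higher and 2 lower in untreated osteoclasts (38.8% and 39% of all genes). With LPS 2 were higher and 3 lower (40.9% and 43% of all genes). The untreated difference of Anxa5 turned from higher to lower under TPM and quantile normalization. The interaction was below 0 for 5 of 5, where it was below 0 for 30% and above 0 for 26.6% of all genes, but below 0 for 2 and above 0 for 1 under TPM (13.9% and 63.3% of all genes), and below 0 for 1 under quantile normalization (24.1%).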

How the data were processed

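The authors deposited FPKM values per Ensembl gene for the 12 libraries. Per the labels, PureLink columns were used for RNA and a NEBNext Ultra RNA kit for the libraries. Per the submitters' processing notes, the tools were fastp, STAR, featureCounts and DESeq2 and the build was mm10, with no roles or versions.

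With GENCODE M21 exon lengths, FPKM steps gave whole reads, within 0.02, for 25015 of 25854 genes above 0 (96.8%) and for 96.2% of values above 0. The recovered totals were 14875560 to 19278653 reads per library. The implied denominators departed by at most 0.148% from median-of-ratios size factors, so a value is relative to the typical gene, which is inferred from the values. Replicates differed by more than sampling noise (chi-square per degree of freedom 2.56 to 11.5).

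The 11335 genes that reached 1 FPKM in 3 or more libraries were tested two-sided with limma 3.58.1 in R 4.3.3 on log2(FPKM + 1), in 1 fit of 4 group means whose eBayes step let the variance follow the mean level. Genes with a Benjamini-Hochberg adjusted p under 0.05 were called, and the interaction subtracts the macrophage LPS effect from the osteoclast LPS effect. The steps were tested on simulated data. The text names the 7 members, the 2 genes with the highest r to each, and genes of the lists and cell markers. The members and lists were chosen with earlier results of these data known. Settings also tried were no filter, a filter at a mean of 5 FPKM, a pseudocount of 0.1, TPM, quantile normalization, only the groups compared, a replicate block, no variance trend, limma's voom on the recovered reads, and each library left out. Intervals cover the spread between libraries only. Some genes of the signalling list are counted in it but not reported here by name.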

Additional observations from a re-analysis of the deposited data

Results flagged for a closer look

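The interaction term of the limma fit was called below 0 for 3 of the 7 receptor genes and above 0 for 0, beside 30% and 26.6% of all genes tested. Under TPM it was below 0 for 2 and above 0 for 0, beside 13.9% and 63.3% of all genes. Each of the 3 genes called in the main fit had a smaller LPS difference in osteoclasts, where Clec4e alone of them was called for LPS. The interaction of Clec4e was −1.97 (standard error 0.24, adjusted p = 2.40e-05), with LPS effects of 5.71 in macrophages and 3.74 in osteoclasts. That of Clec12a was −0.96 (standard error 0.07, adjusted p = 1.66e-07), with effects of 1.09 and 0.13. That of Clec4d was −1.02 (standard error 0.23, adjusted p = 0.00241), with effects of 1.39 and 0.37, and it was −0.78 without LPS-treated osteoclast replicate 2. The Clec4d call was lost under rescaling to TPM and under quantile normalization, and the calls of the other two were not, although that of Clec12a shrank to −0.39 and −0.38 and that of Clec4e to −1.31 and −1.72.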

How the results depend on the processing

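The 35 log2 differences of the members kept their direction and their side of the threshold in 391 values with 1 library left out, while 18 lost a call, 4 gained one and 7 changed sign. Under the other settings these numbers were 271, 12, 6 and 14. Between the cell types all 7 members were called under each setting, with the direction of Clec10a fixed by the filter, except for 6 with a mean of at least 5 FPKM, where Clec10a is not tested. Of all 11335 genes in the main fit, 8822 were called without LPS and 9509 with LPS, so a call there was common. For LPS in macrophages 6 members were called, against 3 under TPM, 4 to 6 with 1 library left out and 4 to 7 otherwise. Of all 11335 genes, 7921 were called for it in the main fit and 9730 under TPM. For LPS in osteoclasts 2 were called, against 1 with no filter, 1 with only the groups compared, 4 with voom and 1 to 3 with 1 library left out. Of all genes, 2008 of 11335 were called for it in the main fit and 1641 of 25854 with no filter. With only the groups compared 1394 of 11335 were called. For the interaction 3 were called, against 2 under TPM, 3 under quantile normalization with Clec10a in place of Clec4d, and 3 to 4 with 1 library left out (Clec7a was called at −0.39 without LPS-treated osteoclast replicate 1). Of all 11335 genes, 6413 were called for it in the main fit, 8747 under TPM and 6824 under quantile normalization. The Clec10a call is limited by its osteoclast values, which all lie below 1 FPKM. Signs changed under TPM for LPS in macrophages (Clec4n −0.28, Clec7a −0.30, Clec10a −0.16) and for the interaction (Clec4n 0.35, Clec5a 0.56, Clec7a 0.32, Clec10a 0.14). They changed under quantile normalization for Clec4n (−0.14 for LPS in macrophages, 0.22 for the interaction) and Clec5a (interaction 0.16). The interaction of Clec5a was also 0.03 with a pseudocount of 0.1, 0.08 with voom and −0.29 to 0.24 with 1 library left out. The LPS difference of Clec10a in osteoclasts was 0.09 with a pseudocount of 0.1, 0.43 with voom and −0.11 to 0.08 with 1 library left out (above 0 without untreated osteoclast replicate 1 or 3, at 0.00 and 0.08, or LPS-treated osteoclast replicate 2, at 0.02). For LPS in osteoclasts, leaving out 1 library gave −0.07 to 0.33 for Clec4n and −0.09 to 0.21 for Clec7a, both below 0 without LPS-treated replicate 1 alone. The cause of these changes was not tested. With a mean of at least 5 FPKM, fewer genes are tested, and of all genes 4851 were called for LPS in macrophages (7921 otherwise), 5427 and 5694 between the cell types without and with LPS (8822 and 9509) and 4018 for the interaction (6413). Replicate numbers did not pair the libraries: the deviations of same-numbered libraries had correlations of −0.07 to 0.104. With the replicate number as a block, 7 members were called for LPS in macrophages (Clec4n added), 2 in osteoclasts, 7 in each comparison of the cell types and 3 for the interaction. Of all 11335 genes, the block called 7914 for LPS in macrophages and 1930 in osteoclasts. It called 8787 and 9512 between the cell types without and with LPS, and 6422 for the interaction. Voom on the recovered reads called 7546 of 10763 genes for LPS in macrophages, 2298 in osteoclasts, 8478 and 8928 between the cell types without and with LPS, and 5765 for the interaction. With only the groups compared there is no interaction. Depth limits Clec10a in osteoclasts, at 1 to 16 reads per library.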
